A study of Mus musculus with 16 samples.

Results

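The genes described here are 40 genes of the amino acid response and of aminoacyl-tRNA synthesis, measured by RNA sequencing of whole mouse pancreas. They were taken by symbol from the raw read counts, which list 24411 genes. All 40 were listed under the symbols given, and all 40 passed the filter on low counts that left 13660 genes to test. They comprise 4 regulators, 4 stress outputs, 6 enzymes of serine and one-carbon synthesis, 6 enzymes of other amino acid synthesis, 6 transporters, 2 membrane or secreted targets and 12 cytosolic tRNA synthetases.

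Pancreata came from 16 male C57BL6/J mice, 12 weeks old and on standard chow: 5 lean WT mice, 7 leptin-deficient obese Lep(ob/ob) mice, both on control water, and 4 Lep(ob/ob) mice given a cholecystokinin (CCK) receptor antagonist in the drinking water for the last 6 weeks (CCKRi). Of the 4, 2 had received proglumide at 0.1 mg/mL and 2 lorglumide at 0.05 mg/mL, both of which compete with CCK for its receptors. All mutant mice lack leptin in every tissue and are obese, so leptin loss and obesity cannot be told apart. The Lep(ob/ob) mice were purchased. For WT mice breeding in house is what the labels state, while the methods of the study give them as purchased too. Each mouse carries 1 of 2 batch codes in the labels, called A and B here, without a statement of what the codes stand for. Code A marks 3 of the WT and 4 of the Lep(ob/ob) mice, and code B marks the remaining 2 and 3 together with every one of the 4 treated animals.

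When an amino acid runs short, uncharged tRNAs activate the kinase GCN2, which phosphorylates the initiation factor eIF2. The kinase PERK does the same when unfolded proteins build up in the endoplasmic reticulum. General translation then slows, while translation of the transcription factor ATF4 goes up, and ATF4 with C/EBP partners switches on genes for amino acid synthesis, uptake and tRNA charging. Acinar cells of the pancreas make very large amounts of secreted enzyme, and their demand for charged tRNA is correspondingly high.

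ATF4 binds DNA at C/EBP-ATF response elements. The letters TGATGNAAN, a core of such elements, were searched on either strand in RefSeq promoters (GRCm38.p6) from 250 bases before to 50 bases after the start of each gene. The promoter table held 32 of the 40 genes, and the others were Aldh1l2, Cth, Slc7a5, Slc7a3, Cars, Lars, Nars and Wars. A match was present for 12 of the 32 genes (37.5%), against 1215 of the 27025 genes of the table (4.5%) and 3.95% of its 32851 promoters. In Iars, Trib3 and Yars the matches reached past the start. A selection of the sites that lie wholly before the start is shown because the genes they belong to include several of those with the largest differences below. Each is given 5′ to 3′ on the strand of the gene with up to 10 bases on each side, and capitals mark the match, which reads as NTTNCATCA where it lies on the opposite strand.
Asns, chr6:7693214-7693242, minus strand: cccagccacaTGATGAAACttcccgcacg
Pycr1, chr11:120643833-120643861, minus strand: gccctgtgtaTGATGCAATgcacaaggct
Chac1, chr2:119351038-119351066, plus strand: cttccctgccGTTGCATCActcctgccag
Nupr1, chr7:126625563-126625591, minus strand: aaagggccagATTGCATCAgacagggctt
Slc7a11, chr3:50443661-50443689, minus strand: ctcatgtggcTGATGCAAAcctggagaat
Slc7a11, chr3:50443643-50443671, minus strand: acctggagaaTTTGCATCAtcatgcagcc
Vldlr, chr19:27216809-27216837, plus strand: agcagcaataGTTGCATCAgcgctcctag
Gars, chr6:55037960-55037988, plus strand: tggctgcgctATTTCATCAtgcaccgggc
Tars, chr15:11399659-11399684, minus strand: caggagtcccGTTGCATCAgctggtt
Of the sites shown, the match nearest the start was that of Tars, 8 bases before it, followed by Asns at 15 and Gars at 23 bases. Slc7a11 carried 2 matches, at 40 and 58 bases, which face in opposite directions and whose windows overlap. These matches are letters in a sequence, and binding of ATF4 was not measured.

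Reads counted on genes ranged from 19.2 to 34.5 M per mouse (M, 1e6 reads) for batch A and from 9.87 to 15.9 M for batch B. The 50 most counted genes, mostly those of digestive enzymes, took 78.9% to 84.4% of the reads of batch A mice, and 48.6% to 76.9% for batch B. All 8 acinar markers were detected in every mouse, and their summed level came to 360000 to 605000 counts per 1e6 reads (CPM) for batch A, against 81300 to 354000 for batch B. Adipocyte markers were highest in 4 mice, Lep(ob/ob) 417, 461 and 463 and CCKRi 69. Their mean marker levels were 6.94, 7.02, 8.59 and 7.99 on the log2 CPM scale. The next mouse, CCKRi 72, had 6.20, and the 4 were taken by rank. Several of the larger differences are also given without the 4 highest, which leaves mouse 464 as the only untreated Lep(ob/ob) mouse of batch B. In such bulk RNA, fewer cells of a type and less RNA per cell cannot be told apart.

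Levels of different genes were compared per length, as CPM divided by the kilobases of exon in the GENCODE annotation. These lengths take the exons of all annotated transcripts together, and were longest for Eprs (18.1 kb) and Slc7a11 (13.9 kb). Nupr1, a small chromatin protein induced by many stresses and known from pancreatitis, was the most abundant of the 40 genes in WT mice, at 470.1 ± 171 CPM per kb (SD, n = 5). Asns, which makes asparagine, followed at 107 ± 39.8. Phgdh, the enzyme that opens serine synthesis, had 60.7 ± 31.1 CPM per kb and Atf4 itself 52.3 ± 16.5. These SDs pool both batches, and no test compared the genes. Before division by length Phgdh had 207 CPM in WT batch A and 66.7 in batch B, against 136 and 104 for Atf4. Wars, the tryptophanyl-tRNA synthetase, had the highest mean of the synthetases in WT over both batches (36.8 ± 14.5 CPM per kb). Nars for asparagine came next (31.8 ± 9.33), within the spread of Wars. The lowest synthetase per kb was Eprs, at 4.13 CPM per kb. Before division by length Eprs had 74.8 CPM, between Cars as the lowest synthetase (36.5) and Nars as the highest (138). At the lower end stood Slc7a11, the light chain of the cystine and glutamate exchanger (0.998 ± 0.851), Trib3 (1.07 ± 0.449) and Sesn2 (1.19 ± 0.482), again within each other's spread. Nupr1 and Asns were the highest and Slc7a11 the lowest of the 40 genes in Lep(ob/ob) and CCKRi mice as well.

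**Figure D1:**
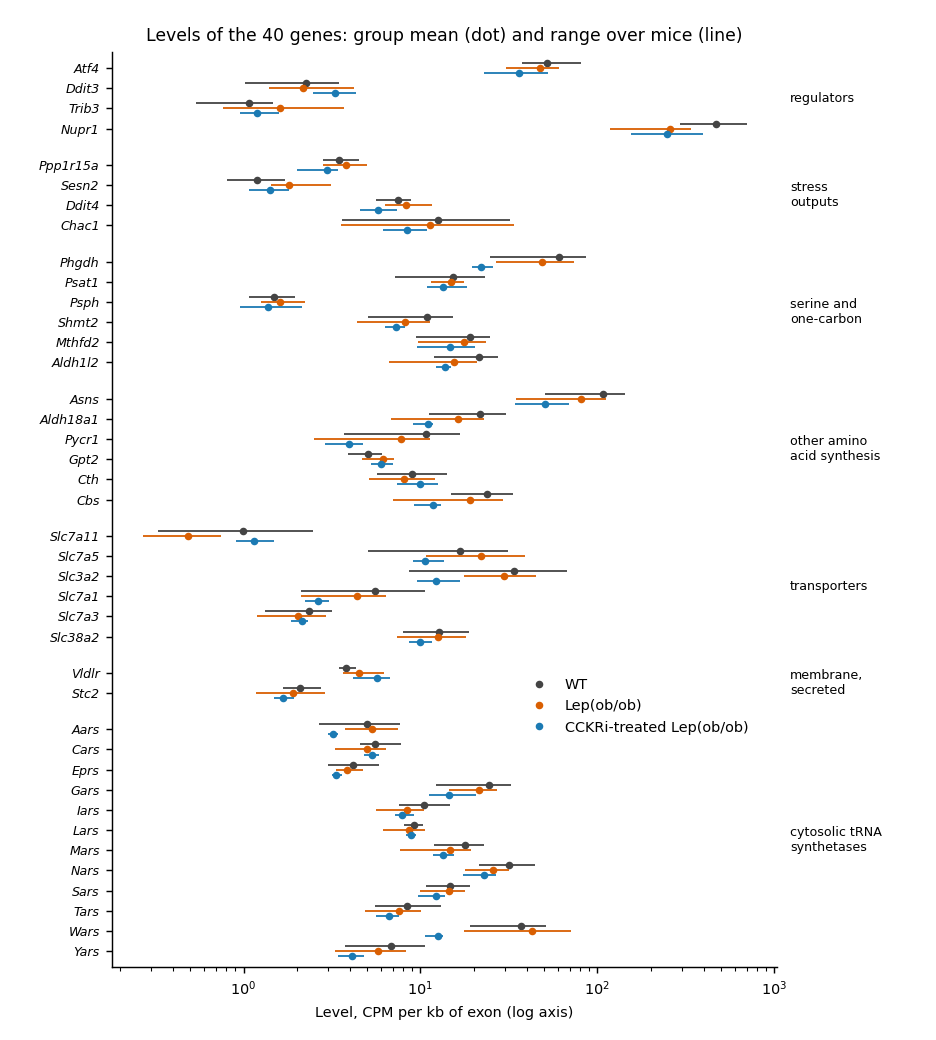
Level of each of the 40 genes in CPM per kb of exon on a log axis, ordered by role, with the mean (dot) and the range over mice (line) for 5 WT, 7 Lep(ob/ob) and 4 CCKRi mice. Nupr1 has the highest and Slc7a11 the lowest mean in each group, and Wars is lower in CCKRi mice than in the others.

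The first comparison asked whether the response is altered in the pancreas of obese leptin-deficient mice. None of the 40 genes passed the threshold, an adjusted p under 0.05 in edgeR's quasi-likelihood test with batch as a covariate and Benjamini-Hochberg adjustment over the genes tested, while 9.07% of all genes tested did. At an unadjusted p under 0.05 there were 5 of the 40 (12.5%), 2 higher and 3 lower in Lep(ob/ob), against 23.8% of all genes. DESeq2 with the same covariate called 2 of the 40, Sesn2 higher and Nupr1 lower, against 11.1% of all genes. The median log2 fold change of the 40 genes was -0.11, with values from -0.94 to 0.66, and that of all genes was -0.02. For 34 of the 40 genes the 95% interval of the difference lay within a 2-fold change in either direction. With both batches pooled, the 2 groups overlapped for each of the 40 genes, whereas they did not overlap for 4.04% of all genes. Beta cell markers were higher in Lep(ob/ob) mice, with 4 of 6 called and a median of 1.96. Of 4 other islet markers 2 were called higher, with a median of 1.56. The part of islet cells in the values of the 40 genes was not tested.

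Among the regulators, Atf4 was at 7.57, 6.74, 6.80, 6.90 and 6.47 log2 CPM in WT mice, the first 3 of them in batch A. In Lep(ob/ob) mice it ranged from 6.18 to 7.16 around a median of 6.83, inside the WT range apart from 2 mice, 417 and 463. Its log2 fold change was -0.12 (95% interval -0.59 to 0.34, edgeR adjusted p = 0.78). Ddit3 encodes CHOP, a transcription factor of prolonged stress, and differed by -0.03 (-0.48 to 0.42). Trib3, a pseudokinase that restrains ATF4, ranged from 0.32 to 1.69 log2 CPM in WT and from 0.80 to 2.99 in Lep(ob/ob), with the highest value in mouse 472, and the fitted difference was 0.61 (-0.21 to 1.43), with 0.92 without the 4 mice high in adipocyte markers and 0.18 without mouse 472. Counts of Trib3 were only 17 to 179 reads per mouse.

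Nupr1 (chr7:126623249-126630861, minus strand) had 10.49, 10.20 and 10.78 log2 CPM in WT mice of batch A and 9.66 and 9.52 in those of batch B. In Lep(ob/ob) mice the lowest value was 8.21, the median 9.42 and the highest 9.74. All 4 Lep(ob/ob) mice of batch A lay below the 3 WT mice, while in batch B 1 of the 3 Lep(ob/ob) mice lay between the WT mice. The log2 fold change was -0.80 (standard error 0.27, edgeR adjusted p = 0.0745), so that the call was missed. DESeq2 gave -0.79 with an adjusted p of 0.0284, and over all alternatives the adjusted p of Nupr1 ran from 0.00502 to 0.616. Leaving out mouse 464 gave -0.90 with an edgeR adjusted p of 0.0338, and leaving out the 4 mice high in adipocyte markers gave -0.60 (0.109).

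The stress outputs are genes through which the response acts back on the cell. Sesn2 (chr4:132492032-132510501, minus strand), a leucine sensor that restrains mTORC1, had 2.61, 1.70 and 2.60 log2 CPM in WT mice of batch A and 1.56 and 1.54 in batch B. In Lep(ob/ob) mice it had 2.35, 3.45, 2.92 and 2.45 in batch A and 2.34, 2.48 and 2.42 in batch B. The groups were apart in batch B and overlapped in batch A. The fitted difference was 0.66 (standard error 0.22, edgeR adjusted p = 0.0722, 0.044 to 0.334 over the alternatives), and it had an edgeR adjusted p of 0.044 without mouse 441 and 0.0477 without mouse 447. Without the 4 mice high in adipocyte markers the difference was 0.62. Chac1, which degrades glutathione, varied widely between mice of the same group, from 2.60 to 5.71 log2 CPM in WT batch A and from 3.29 to 5.80 in Lep(ob/ob) batch A. Its fitted difference of -0.05 had a 95% interval of -1.14 to 1.04, which leaves a 2-fold change in either direction undecided. Ppp1r15a, the phosphatase subunit that reverses eIF2 phosphorylation, and Ddit4, an inhibitor of mTORC1, differed by 0.13 and 0.17 and did not pass.

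Of the 6 enzymes of serine and one-carbon synthesis, none passed. Aldh1l2, a mitochondrial folate dehydrogenase, had the only unadjusted p under 0.05. It was at 7.68, 7.51 and 7.59 log2 CPM in WT batch A, 7.10 and 6.48 in WT batch B, and from 5.64 to 7.30 around a median of 6.95 in Lep(ob/ob). Its log2 fold change was -0.43 (standard error 0.20, edgeR adjusted p = 0.192, 0.0399 to 0.737 over the alternatives). Phgdh, Psat1 and Psph, which carry out the successive steps of serine synthesis, differed by -0.16, 0.05 and 0.15, and the mitochondrial enzymes Shmt2 and Mthfd2 by -0.29 and -0.04.

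Asparagine synthetase is a textbook target of ATF4. Asns had 8.63, 8.38 and 8.56 log2 CPM in WT batch A and 7.81 and 7.12 in WT batch B. In Lep(ob/ob) mice it had 7.99, 8.17, 7.57 and 8.25 in batch A and 7.85, 6.58 and 7.54 in batch B. The Lep(ob/ob) mice lay below the WT mice in batch A, and above, between and below them in batch B, and the fitted difference was -0.34 (-0.81 to 0.13, edgeR adjusted p = 0.38). For Asns it was -0.45 in batch A alone and -0.11 in batch B alone, and the smallest value among the alternatives was -0.07. The proline enzymes Aldh18a1 and Pycr1 differed by -0.33 each and Cbs and Cth, which turn homocysteine into cysteine, by -0.31 and -0.16. Gpt2, the mitochondrial alanine aminotransferase, was the only 1 of these 6 enzymes with a positive value, 0.28 (edgeR adjusted p = 0.244).

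The transporters held the largest negative value of the 40 genes and 1 of the largest positive ones. Slc7a11 (chr3:49892526-50443614, minus strand) had 5.12, 3.14 and 3.52 log2 CPM in WT batch A, 3.37 and 2.23 in WT batch B, and 1.94 to 3.39 around a median of 2.82 in Lep(ob/ob). The log2 fold change was -0.94 (standard error 0.37, edgeR adjusted p = 0.128, 0.0622 to 0.841 over the alternatives). WT mouse 5489 was far the highest, and without it the value was -0.38. Without the 4 mice high in adipocyte markers it was -0.82. Fitted on single batches, Slc7a11 was at -1.35 in batch A and -0.18 in batch B. Slc7a5, the carrier of leucine and other large neutral amino acids, had 6.86, 6.12 and 6.26 in WT batch A and 4.91 and 4.24 in WT batch B. In Lep(ob/ob) mice it had 6.50, 7.18, 6.16 and 6.61 in batch A and 6.18, 5.33 and 5.66 in batch B. Groups were apart in batch B alone, and the fitted difference was 0.58 (standard error 0.24, edgeR adjusted p = 0.148, 0.0136 to 0.641 over the alternatives), or 0.58 without the same 4 mice. Fitted on single batches, Slc7a5 was at 0.27 in batch A and 1.14 in batch B. With the mean acinar marker level as a covariate it was at 0.81 (edgeR adjusted p = 0.0136). Its partner chain Slc3a2 differed by 0.03, the cationic carriers Slc7a1 and Slc7a3 by -0.21 and -0.16, and the neutral carrier Slc38a2 by 0.05. Vldlr, a lipoprotein receptor, and Stc2, a secreted glycoprotein, differed by 0.21 and -0.13.

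The 12 cytosolic synthetases load amino acids onto tRNA. Their log2 fold changes lay between -0.28 for Iars and 0.23 for Wars, with 10 of the 12 below 0 and a median of -0.12. All 12 intervals lay within a 2-fold change. Wars alone passed in an alternative, with 0.39 and an edgeR adjusted p of 0.0466 without the 4 mice high in adipocyte markers (0.0466 to 0.826 over its alternatives). Lars for leucine (-0.08, interval -0.35 to 0.19) and Eprs for glutamate and proline (-0.08, interval -0.37 to 0.20) were the most closely bounded.

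**Figure D2:**
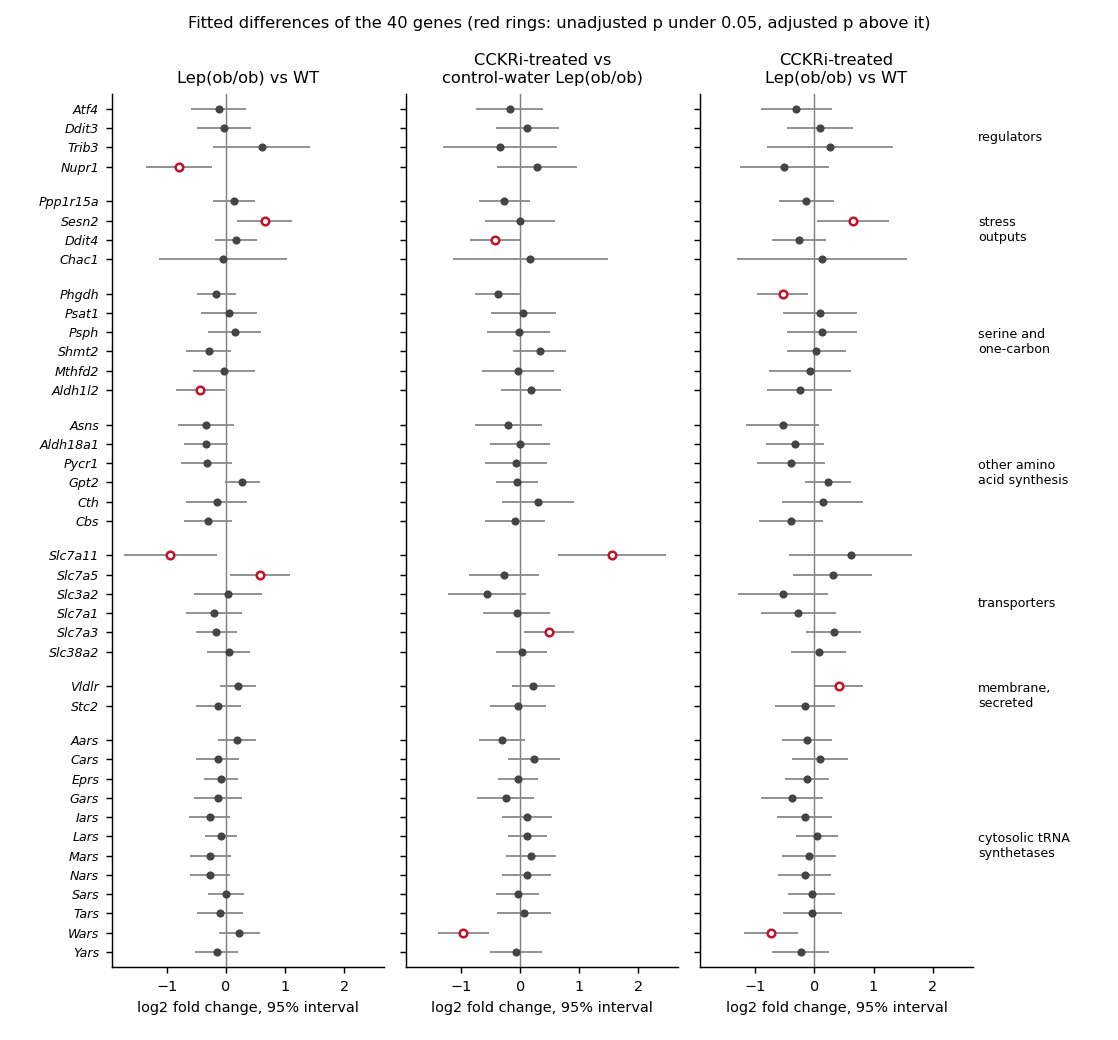
Log2 fold change (dot) and 95% interval (line) of each of the 40 genes in the 3 comparisons, fitted by edgeR with batch as a covariate. Red rings mark genes with an unadjusted p under 0.05, and none of them had an adjusted p under 0.05.

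Since the labels give 2 batches, the same comparison was made in each. In batch A, with 4 Lep(ob/ob) against 3 WT mice, 9 of the 40 genes were lower in every Lep(ob/ob) mouse than in every WT mouse, against 10.3% of all genes, and none was higher in every one, against 10.7%. These 9 were Nupr1, Phgdh, Shmt2, Aldh1l2, Asns, Aldh18a1, Pycr1, Iars and Mars. In batch B, with 3 against 2 mice, 7 of the 40 were higher in every Lep(ob/ob) mouse, namely Sesn2, Psph, Gpt2, Slc7a5, Slc3a2, Vldlr and Aars, against 17.2% of all genes, and none was lower, against 15.7%. The 2 lists share no gene. Fitted on batch A alone, edgeR called 4 of the 40 genes, all lower in Lep(ob/ob), where 8.68% of all genes were called and 1.93% called lower. At an unadjusted p under 0.05 there were 11 of the 40, against 21.4% of all genes. The 4 called were Nupr1 (-0.96, edgeR adjusted p = 0.00502), Shmt2 (-0.53, 0.0454), Aldh1l2 (-0.52, 0.0399) and Pycr1 (-0.49, 0.0313). Fitted on batch B alone, it called none of the 40, with 4 at an unadjusted p under 0.05, against 16.9% of all genes, and only 8 of 14045 genes in all. DESeq2 was not run on single batches.

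The difference between the batches was then tested itself, as an interaction of genotype and batch. The interaction was called by edgeR for none of the 40 genes, and for 0% of the 13189 genes in that fit. At an unadjusted p under 0.05 there were 5 of the 40, Gpt2, Vldlr, Psat1, Slc3a2 and Phgdh, each with a lower value in batch A than in batch B, and 1574 of all genes. Of the 40 differences 35 were below 0, with a median of -0.41 against 0.02 for all genes. Psat1, with 1 of the larger differences, had -0.32 in batch A and 0.69 in batch B (interaction -1.04, standard error 0.34, edgeR adjusted p = 0.37). The summed acinar markers were 552000 to 605000 CPM in WT against 360000 to 561000 in Lep(ob/ob) animals of batch A. The respective ranges were 155000 to 283000 and 145000 to 354000 for batch B. Their part in the within-batch differences was not tested.

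**Figure D3:**
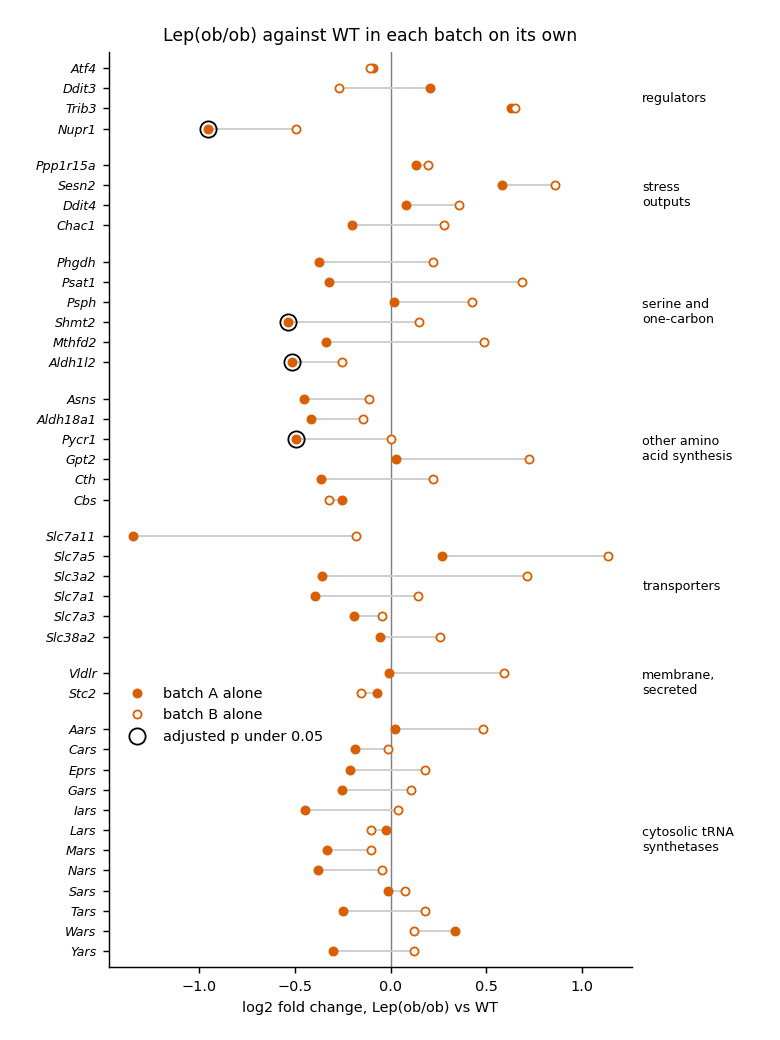
Log2 fold change of Lep(ob/ob) against WT for each of the 40 genes, fitted by edgeR on batch A alone (filled, 4 against 3 mice) and batch B alone (open, 3 against 2 mice). Black rings mark the 4 genes with an adjusted p under 0.05 in batch A, and for 35 of the 40 genes the fitted interaction was below 0.

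The second comparison asked whether blocking CCK receptors alters these genes in obese mice. It shares the Lep(ob/ob) mice with the first, and since no CCKRi mouse was in batch A, only untreated animals inform its batch term. None of the 40 genes passed in edgeR, where 0.0586% of all genes did. At an unadjusted p under 0.05 there were 4 of the 40 (10%), Slc7a11 and Slc7a3 higher and Wars and Ddit4 lower, against 14.3% of all genes. DESeq2 with batch called 1 of the 40, Wars, against 0.838% of all genes. The median of the 40 log2 fold changes was -0.03, with a range of -0.96 to 1.55, against -0.01 over all genes, and 35 of the 40 intervals lay within a 2-fold change. The groups did not overlap for 5 of the 40 genes, whether all Lep(ob/ob) mice or those of batch B were used, against 5.81% and 8.49% of all genes.

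Wars (chr12:108860030-108894174, minus strand), known also as a gene induced by interferon gamma, had the smallest p of the 40 genes. It was at 5.20 and 5.49 log2 CPM with proglumide and 5.53 and 5.54 with lorglumide. Untreated Lep(ob/ob) mice had 7.62, 7.93, 7.00 and 7.78 in batch A and 6.66, 5.93 and 6.44 in batch B, and WT mice had 7.11, 7.46 and 7.41 in batch A and 6.40 and 6.04 in batch B. Every CCKRi mouse lay below every other mouse. The log2 fold change against untreated Lep(ob/ob) mice was -0.96 (standard error 0.21, 95% interval -1.40 to -0.53), a level 0.512 times theirs. Its edgeR adjusted p was 0.126, while DESeq2 gave 0.00122, and the alternatives ran from 0.00033 to 0.457. Without the 4 mice high in adipocyte markers it was -1.04, with an edgeR adjusted p of 0.0193. That fit held mouse 464 as the only untreated Lep(ob/ob) mouse of batch B. In batch B alone, with all its mice, Wars was at -0.90 (edgeR adjusted p = 0.327). Summed macrophage markers were 165 to 665 CPM in untreated Lep(ob/ob) animals of batch B and 78.5 to 251 in CCKRi mice, and those of stellate cells and fibroblasts 274 to 825 and 182 to 382. At an unadjusted p under 0.05, 4 of 5 and 4 of 4 of these markers were lower in CCKRi mice, and their part in the values of Wars was not tested. Summed acinar markers were 145000 to 354000 CPM in those untreated animals and 81300 to 234000 in CCKRi mice, with 2 of 8 lower at an unadjusted p under 0.05. With the mean acinar marker level as a covariate Wars was at -0.77, the smallest difference among its alternatives, and without a batch term it was at -1.77 in edgeR and -1.78 in DESeq2, the largest. The other 11 synthetases had values of -0.31 for Aars to 0.23 for Cars and none of their p-values was under 0.05.

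Slc7a11 had 3.67 and 4.05 log2 CPM with proglumide and 4.38 and 3.80 with lorglumide. All 4 values lay above the highest untreated Lep(ob/ob) value, 3.39, and within the WT range of 2.23 to 5.12 over both batches. They lay above both WT mice of batch B, at 2.23 and 3.37. Fitted on batch B alone, the difference from WT was 1.12 (edgeR adjusted p = 0.339). The log2 fold change against untreated Lep(ob/ob) mice was 1.55 (standard error 0.43, 95% interval 0.64 to 2.47), or 2.93-fold, with an edgeR adjusted p of 0.236 (0.0272 to 0.689 over the alternatives). Without the 4 mice high in adipocyte markers it was 1.70, and in batch B alone 1.30 (edgeR adjusted p = 0.327). Over all alternatives it ran from 1.22, without a batch term in DESeq2, to 1.965. Counts were 205 to 340 reads in CCKRi mice and 96 to 237 in untreated ones. Slc7a3, a carrier of arginine and lysine, had 2.83 and 3.07 with proglumide and 3.10 and 3.15 with lorglumide, against 2.21 to 3.48 in untreated mice, and the fitted difference was 0.49 (edgeR adjusted p = 0.312), with 0.28 without the 4 mice high in adipocyte markers and 0.056 without a batch term in DESeq2. Ddit4 had 3.17 and 3.70 with proglumide and 3.01 and 3.44 with lorglumide against 3.49 to 4.36, and the fitted difference was -0.43 (edgeR adjusted p = 0.35).

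Phgdh, Slc3a2 and Aars were also lower in every CCKRi mouse than in every untreated Lep(ob/ob) mouse, by smaller amounts. Phgdh (chr3:98313170-98339990, minus strand) had 5.60, 5.71, 5.78 and 6.00 log2 CPM in CCKRi mice and 6.06 or more in untreated mice, with a fitted difference of -0.38 (-0.77 to 0.01). Slc3a2 and Aars differed by -0.56 and -0.31. The other core genes of the response differed little: Atf4 by -0.18 (-0.74 to 0.38), Ddit3 by 0.12 (-0.42 to 0.65), Trib3 by -0.34 (-1.31 to 0.63), Chac1 by 0.17 (-1.13 to 1.48) and Asns by -0.20 (-0.76 to 0.37). The intervals of Trib3 and Chac1 include a 2-fold change. Both drugs were pooled because each had 2 mice and the doses differed, so the drugs were not compared.

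**Figure D4:**
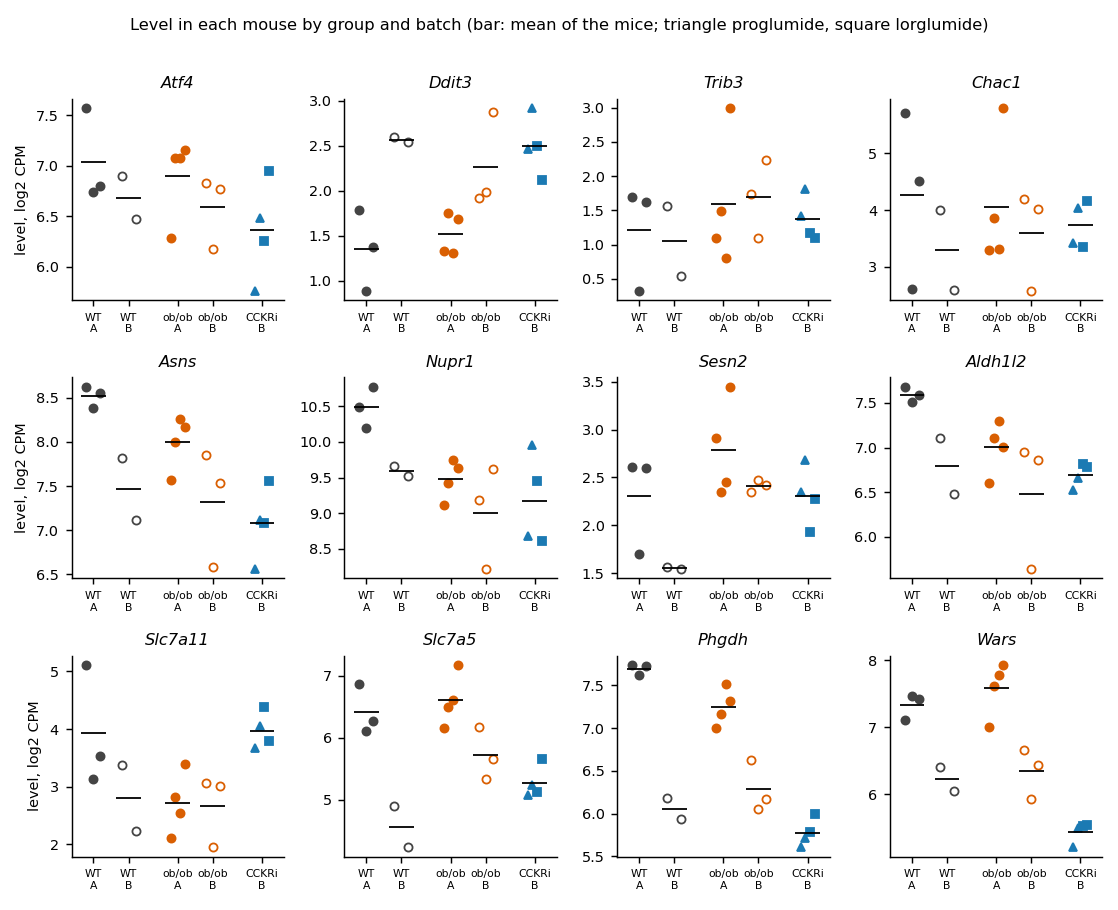
Level of 12 of the genes in each mouse in log2 CPM, by group and batch (filled, batch A; open, batch B; triangles, proglumide; squares, lorglumide), with the mean of each set of mice as a bar. Wars lies below all other mice in the 4 CCKRi mice, Slc7a11 above all untreated Lep(ob/ob) mice, and most genes stand higher in batch A.

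The third comparison set CCKRi mice against lean WT mice, both of which enter the other comparisons too. None of the 40 genes passed in edgeR, against 5.57% of all genes. At an unadjusted p under 0.05 there were 4 of the 40 (10%), Sesn2 and Vldlr higher and Phgdh and Wars lower, against 16.7% of all genes. DESeq2 with batch called 1, Wars, against 6.73% of all genes. The median log2 fold change was -0.10 against -0.02 over all genes, with a range of -0.74 to 0.65. With both batches pooled, groups did not overlap for Cbs and Wars, both lower in CCKRi mice, against 11.5% of all genes. Within batch B they did not overlap for 7 of the 40, against 2950 of the 13660 genes. Sesn2, Gpt2, Slc7a11, Slc7a5 and Vldlr were higher in CCKRi mice there, and Cbs and Wars lower. Wars had -0.74 (standard error 0.21, edgeR adjusted p = 0.0557, 0.00117 to 0.267 over the alternatives), or -0.65 without the 4 mice high in adipocyte markers. It ran from -1.55 without a batch term in DESeq2 to -0.41 with the mean acinar marker level as a covariate, and 7 of the 8 acinar markers had values below 0, with a median of -0.73. Phgdh had -0.54 (edgeR adjusted p = 0.161), Sesn2 0.65 (0.248) and Vldlr 0.42 (0.275). In batch B alone, which holds all CCKRi mice, the values were -0.27, 0.81 and 0.70. Over all alternatives Phgdh ran from -1.47 to -0.24, Sesn2 from 0.24 to 0.82 and Vldlr from 0.29 to 0.70. The core genes had -0.30 for Atf4, 0.09 for Ddit3, 0.27 for Trib3, 0.12 for Chac1 and -0.54 for Asns, with edgeR adjusted p from 0.389 to 0.957.

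More of the 40 genes differed between the batches at a fixed group than between any groups, as tested with the batch term of the same edgeR fit. Of the 40 genes, 20 passed, against 35.7% of all genes, and 19 of these were higher in batch A, against 17.7% of all genes. The median of the 40 genes was 0.52, against -0.06 over all genes. Of the transporters 5 of 6 were called, among them Slc7a5 (1.27, standard error 0.25), Slc3a2 (1.20) and Slc7a1 (1.09). Among the enzymes Pycr1 (1.41, standard error 0.21) and Phgdh (1.23, standard error 0.16) had the largest values, followed by Cbs (0.92), Aldh18a1 (0.92) and Shmt2 (0.85). All 12 synthetases had positive values, of which 6 were called, from 0.46 for Nars to 1.19 for Wars. Ddit3 went the other way, at -0.98 (standard error 0.21, edgeR adjusted p = 0.00242), while Atf4 (0.35, adjusted p = 0.228) and Trib3 (0.17) did not pass.

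Batch A also had the deeper libraries, the larger share of reads in the 50 most counted genes and the higher acinar marker levels, none of whose ranges overlapped between batches. A model that also held the mean acinar marker level was added once the data had been seen, and in it 1 of the 40 genes, Phgdh, was called higher in batch A while the median of the 40 became -0.13. Without the 4 mice high in adipocyte markers, 23 were called higher. Depth and acinar content moved together with the batch, and their separate parts were not tested.

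**Figure D5:**
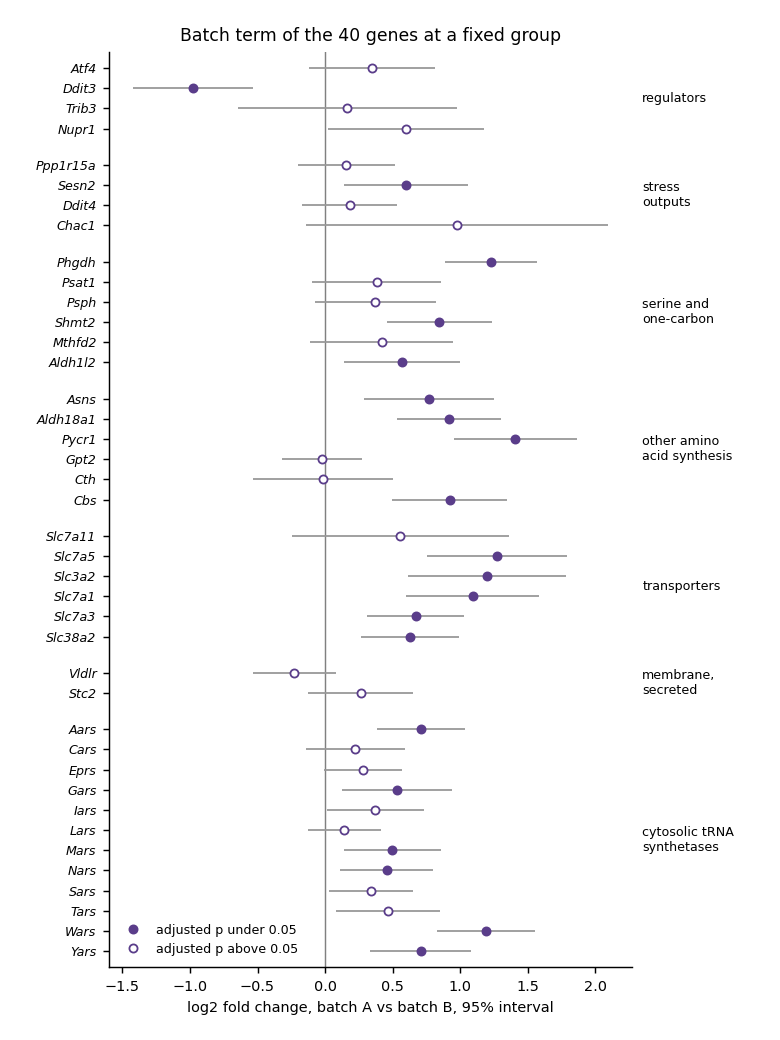
Log2 fold change of batch A against batch B (dot) with its 95% interval (line) for each of the 40 genes at a fixed group, fitted by edgeR over 16 mice. Filled dots have an adjusted p under 0.05, and 19 of these 20 lie to the right of 0.

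Within a group and batch, the genes varied from mouse to mouse largely together. In WT mice of batch A, mouse 5489 was the highest of the 3 for 35 of the 40 genes and mouse 5492 the lowest for 36. In WT mice of batch B, mouse 58 was the higher of the pair for 39. Among Lep(ob/ob) mice, 417 was the lowest of its 4 for 31 genes and 463 the lowest of its 3 for 34, and both were among the mice with high adipocyte markers. Mouse 461, another of these, was the highest of its 3 for 24 genes, with a median deviation of 0.28, and CCKRi mouse 69 was the lowest of its 4 for 24. The median deviation of the 40 genes from the mean of their group and batch was -0.40 in mouse 417 and -0.41 in mouse 463, against -0.09 and 0.02 over all genes. In summed acinar markers the highest mouse of WT batch A was 5489 and the lowest 5492, and 58 was above 59. Mouse 417 was the lowest of its 4 at 359900 CPM, 461 the highest of its 3 at 354300 and 463 the lowest at 144600. In batch A the highest Lep(ob/ob) mouse was 447, while 472 was the highest for 25 of the 40 genes. CCKRi mouse 69 was the lowest of its 4 at 81300. The part of either cell type in this variation was not tested.

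Of the other genes of these pathways, 72 were tested, among them the remaining cytosolic and the mitochondrial synthetases, the eIF2 kinases and eIF2B, further ATF4 targets, one-carbon and glycine enzymes and chaperones of the other unfolded protein branches. In Lep(ob/ob) against WT mice 5 of the 72 passed, 1 higher and 4 lower, where 9.07% of all genes did. Mthfd1l, the mitochondrial formate-producing synthetase, was higher (0.82, standard error 0.24, edgeR adjusted p = 0.044). In batch A it overlapped, with 3.11, 2.28 and 2.50 log2 CPM in WT and 2.88 to 3.15 in Lep(ob/ob) mice. In batch B it had 1.32 and 0.91 in WT mice, from 26 and 29 reads, and 2.45 to 3.02 in Lep(ob/ob) mice. Lower were Creld2, an endoplasmic reticulum stress protein (-1.10, adjusted p = 0.0136), Gatm, which opens creatine synthesis from arginine and glycine (-0.95, 0.0189), Eif2ak3, which encodes PERK (-0.72, 0.0267), and Gcsh of the glycine cleavage system (-0.41, 0.046). None of the 8 remaining cytosolic and 17 mitochondrial synthetases passed. Of the latter, 15 had values below 0, with a median of -0.31, and 7 had an unadjusted p under 0.05, 6 of them lower (41.2%, against 23.8% of all genes). With the antagonists against untreated Lep(ob/ob) mice none of the 72 passed in edgeR, with 9 at an unadjusted p under 0.05 (12.5%, against 14.3% of all genes). Against WT mice 1 passed, Mthfd1l (1.45, adjusted p = 0.0107), where 5.57% of all genes did. CCKRi mice had 2.78 to 3.60 log2 CPM of Mthfd1l, and the WT mice of their batch are those with 26 and 29 reads.

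Some of these counts could include reads of another gene. For Phgdh, 47.8% of all 50-base stretches of its transcripts are found in those of 20 further genes too, whose listed members had a mean of 0.0625 reads, so that reads of Phgdh could have been lost there. Aars shares 1326 bases of exon on the same strand with Exosc6, which had a mean of 30.9 reads against 775 for Aars. Psph overlaps Cct6a on the opposite strand by 452 bases, with 712 reads for Cct6a against 117 for Psph, and Aldh1l2 overlaps D10Wsu102e by 1056 bases. Ddit3 and Mars overlap on opposite strands by 68 bases. The libraries keep the strand, but whether the counting used it is not given in the sources used here.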

How the data were processed

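RNA was sequenced from whole pancreas of 16 mice (100-base paired ends, strand-specific polyA libraries). Per the labels, the authors trimmed reads with Trim Galore 0.6.7 and cutadapt 3.5 and aligned them with STAR 2.7.9 to mm10. The read counter, its strand setting and the annotation are not given in the sources used here. The authors deposited a raw count per gene and mouse, which was used, and a second table that scales these counts by a constant per mouse, which was not used.

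Analysis used edgeR 4.0.16 (limma 3.58.1, R 4.3.3): filterByExpr, TMM normalization, and the quasi-likelihood test in a model of the 3 groups and batch, with Benjamini-Hochberg adjustment over 13660 genes at 0.05. Batch is unbalanced over groups, so it was made a term. DESeq2 1.42.0 served as an alternative. Log2 CPM used a prior count of 2 and TMM library sizes. Standard errors and 95% intervals come from the quasi-likelihood F statistic. The scripts were tested on simulated data. Mice are separate animals. Depth was 9.87 to 34.5 M counts (M, 1e6).

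The 40 genes, their roles and the other lists were chosen with earlier results of these data known. Genes were to be described mouse by mouse if called in a comparison or if they were Atf4, Ddit3, Trib3, Chac1 or Asns. None was called, so 10 genes with an unadjusted p under 0.05 were added after their values were seen. The batch term, the interaction and the fits with marker covariates or without 4 mice were also added then. Positions and exon lengths are from GENCODE M21 (GRCm38), promoters from RefSeq, of which 1 site is not reported here. Other alternatives were no batch term, RLE normalization, normalization without the 50 most counted genes, omitting the low-count filter, requiring 10 counts in each mouse, fitting only the groups compared, single batches, and leaving out each mouse. Reference tables were read with Python 3.11.15 and pandas, and figures drawn with matplotlib.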

Additional observations from a re-analysis of the deposited data

Results flagged for a closer look

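For 15 of the genes, Dixon's ratio was computed on the log2 CPM scale, which sets the distance from the outermost mouse to the next against the group's whole range. It passed the critical value in 5 of 45 combinations of gene and group, where chance gives about 1 in 20. The Lep(ob/ob) mice of both batches were pooled for it, although Ddit3 was lower in batch A by the batch term (-0.98) and Asns (0.77) and Aldh1l2 (0.57) higher, with 0.60 for Nupr1. All 4 of the Lep(ob/ob) values were from batch B and lay in the direction of these differences. Of these, 3 were low values in Lep(ob/ob) mouse 463 of batch B, the mouse with the highest adipocyte markers and, at 144600 CPM, the lowest summed acinar markers of the untreated Lep(ob/ob) mice. Nupr1 was 8.21 there against 9.11 in the next mouse, Aldh1l2 5.64 against 6.60 and Asns 6.58 against 7.54. Since these come from a single library they are not independent. Ddit3 was 2.87 in Lep(ob/ob) mouse 464 against 1.99 in the next mouse. Wars was 5.20 in CCKRi mouse 69, also high in adipocyte markers and at 81300 CPM the lowest of the 16 mice in acinar markers, against 5.49. Causes were not tested.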

How the results depend on the processing

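No paired analysis was possible because the numbers in the labels are those of single mice and the groups share none. Counts of genes with an adjusted p under 0.05 out of the 40 are given first, each against 0 in the fit reported. For Lep(ob/ob) against WT, 1 was higher with DESeq2 and batch (Sesn2), without the 4 mice high in adipocyte markers (Wars) and with the acinar score (Slc7a5), and 1 was lower with DESeq2 and batch and with only the groups compared (Nupr1 each time) and 4 in batch A alone. For CCKRi against Lep(ob/ob), 1 was lower with DESeq2 and batch, with edgeR without batch, without the 4 mice and with the adipocyte score (Wars each time) and 6 with DESeq2 without batch, and 1 was higher with DESeq2 without batch and with the adipocyte score (Slc7a11). For CCKRi against WT, Wars alone (1) was lower with DESeq2 and batch, RLE, the 50 most counted genes left out, the 4 mice left out and the adipocyte score, 4 were lower with edgeR without batch and 10 with DESeq2 without batch, which also called 1 higher (Vldlr). With single mice left out, higher and lower calls ran from 0 to 1 for Lep(ob/ob) against WT (Sesn2 without 441 or 447, Nupr1 without 464), lower calls from 0 to 1 for CCKRi against WT (Wars without 472, 417 or 463), and stayed at 0 for CCKRi against Lep(ob/ob). The medians of the 40 genes ran from -0.20 to 0.04, -0.08 to 0.12 and -0.23 to 0.01 in the 3 comparisons, and 13 to 22 genes were called higher and 1 lower in batch A. Over the other alternatives the median ran from -0.23 (batch A alone) to 0.13 (batch B alone) for Lep(ob/ob) against WT and from -0.27 (DESeq2 without batch) to 0.19 (acinar score) for CCKRi against Lep(ob/ob). That for CCKRi against WT became -0.40 and -0.41 without batch (edgeR and DESeq2) and 0.24 with the acinar score. With that score the batch term called 1 higher and 0 lower, with a median of -0.13.

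Single values that changed sign, none with an adjusted p under 0.05, were as follows. For Lep(ob/ob) against WT, Ddit3 was 0.0096 with the 50 genes left out of normalization, 0.20 with the adipocyte score, 0.21 in batch A and 0.26 without the 4 mice. Chac1 was 0.39 and 0.50 with the acinar and adipocyte scores, 0.28 in batch B and 0.19 without the 4 mice, and Atf4 0.13 and 0.23 with the 2 scores and 0.042 without the 4 mice. For CCKRi against Lep(ob/ob), Chac1 was -0.43 and -0.45 without batch (edgeR and DESeq2), Ddit3 -0.29 without the 4 mice, and Asns 0.16 and Atf4 0.059 with the acinar score. For CCKRi against WT, Chac1 was -0.58 and -0.59 without batch, Ddit3 -0.031 in batch B, -0.022 with only the groups compared and -0.029 without the 4 mice, and Asns 0.085 and Atf4 0.19 with the acinar score. With single mice left out, Atf4 ran from -0.20 to 0.047, Ddit3 from -0.15 to 0.063 and Chac1 from -0.61 to 0.48 for Lep(ob/ob) against WT. Ddit3 ran from -0.042 to 0.31, Chac1 from -0.058 to 0.42 and Asns from -0.38 to 0.028 for CCKRi against Lep(ob/ob), and Ddit3 from -0.070 to 0.20, Trib3 from -0.016 to 0.50 and Chac1 from -0.26 to 0.45 for CCKRi against WT. The cause of these changes was not tested.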
